A study of Homo sapiens with 6 samples.

Results

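The genes described here build, load and fuse the vesicles that move between the endoplasmic reticulum (ER), the Golgi and the later compartments of the secretory pathway. They were chosen by gene symbol, from the COP, SEC, SAR1, TMED, STX, VAMP, SNAP, VTI1 and TVP23 families with ARCN1, YKT6, BET1, GOSR1, GOSR2 and SYPL1. The choice was made with earlier results of these data known. Of the 11679 genes in the tables, 79 were members. The cells were 786-O, a line from a human kidney tumour (clear cell renal cell carcinoma), transfected with a non-targeting siRNA (Qiagen Allstars, the control, NTC) or with ALYREF siRNA5 or ALYREF siRNA8, in 2 libraries per group. All 3 groups were grown in RPMI with serum and harvested 48 h after transfection, and polyadenylated RNA was sequenced. ALYREF is an adaptor that couples finished transcripts to nuclear export, and its log2 change was -4.14 (SE 0.096) with siRNA5 and -3.67 (SE 0.085) with siRNA8 per the authors' deposited tables.

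Of 7 genes looked up for this tumour and for kidney epithelium, 6 were listed (PAX8, PAX2, VIM, ANPEP, EPAS1 and VHL), and CA9 was not. Not all of these are markers of identity, and VHL in particular is a tumour suppressor gene. Of 4 markers of leukocytes, endothelium and basal epithelium, 0 were listed. The authors' deposited tables give 1 mean normalized count per gene over the libraries of their fit and a fold change with its standard error (SE) per siRNA. Values per library and library depths are not given in the sources used here. Levels per group below were rebuilt from these values, in normalized counts that are not corrected for gene length, so levels are compared between groups and not between genes. The labels do not say whether the duplicates were separate cultures, so the spread behind each p-value is that between these libraries and may be technical. Both siRNAs are set against the same 2 control libraries, so they share whatever is particular to those libraries. In RNA from a whole culture, fewer cells that express a gene and less of its RNA per cell cannot be told apart.

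Secretory cargo leaves the ER in vesicles coated by COPII, in which the small GTPase SAR1 recruits the SEC23-SEC24 inner coat and the SEC31 outer coat. COPI coats carry material back from the Golgi to the ER and between Golgi cisternae, and p24 proteins (TMED) are membrane receptors that ride in both kinds of vesicle. Fusion is driven by SNAREs, of which a syntaxin and its partners on one membrane zip together with a partner on the other. The SEC61 translocon and the signal peptidase act before all of this, as new proteins enter the ER.

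Changes were frequent among the members with each siRNA and were mostly small. With siRNA5, 27 of the 79 members rose, 21 fell and 31 did not pass at an adjusted p under 0.05 (DESeq2 Wald test of the authors' deposited table, adjusted over the whole table). Over all genes 24.4% rose and 22.0% fell with siRNA5, against 34.2% and 26.6% of the members. With siRNA8, 20 members rose, 24 fell and 35 did not pass, which is 25.3% and 30.4% of the members beside 21.0% and 20.5% of all genes. The median log2 change of the members was 0.04 with siRNA5 and -0.04 with siRNA8, beside 0.0097 and 0.0063 over all genes. At least 2-fold changes that passed the test were 1 rise and 4 falls among the 79 members with siRNA5, and 1 rise and 5 falls with siRNA8. Among all 11679 genes there were 193 such rises and 363 such falls with siRNA5, and 183 and 320 with siRNA8. The members' mean normalized counts ran from 14.7 (TVP23C) to 7802 (SEC61A1), and 70 members had a mean of at least 100, with a median SE of 0.072 on the log2 scale with each siRNA.

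The vesicle membrane proteins showed the widest gap between the siRNAs. SYPL1, a four-span membrane protein of transport vesicles related to synaptophysin, stood at 2634 normalized counts in the control, 4472 with siRNA5 and 696 with siRNA8. The siRNA8 level was the lowest of the 3 groups and the siRNA5 level the highest. In the authors' deposited tables SYPL1 rose with siRNA5 by 0.76 (SE 0.051, adjusted p = 5.71e-48) and with siRNA8 fell by 1.92 (SE 0.063, adjusted p = 1.81e-200). SYPL1 RNA was thus 170% of the control with siRNA5 (95% interval 158 to 182) and 26.4% with siRNA8 (24.3 to 28.8). TVP23B, a Golgi membrane protein, moved the same way, from 497.7 in the control to 818.5 with siRNA5 and 150.3 with siRNA8. Its log2 changes per the authors' deposited tables were 0.72 (SE 0.11, adjusted p = 1.11e-10) and -1.73 (SE 0.13, adjusted p = 8.76e-39). The longest annotated transcripts of TVP23B and its relative TVP23C are 99.1% identical, so reads of the pair may have been split or lost in counting. TVP23C, at a mean of 14.7, was not called with either siRNA.

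**Figure D1:**
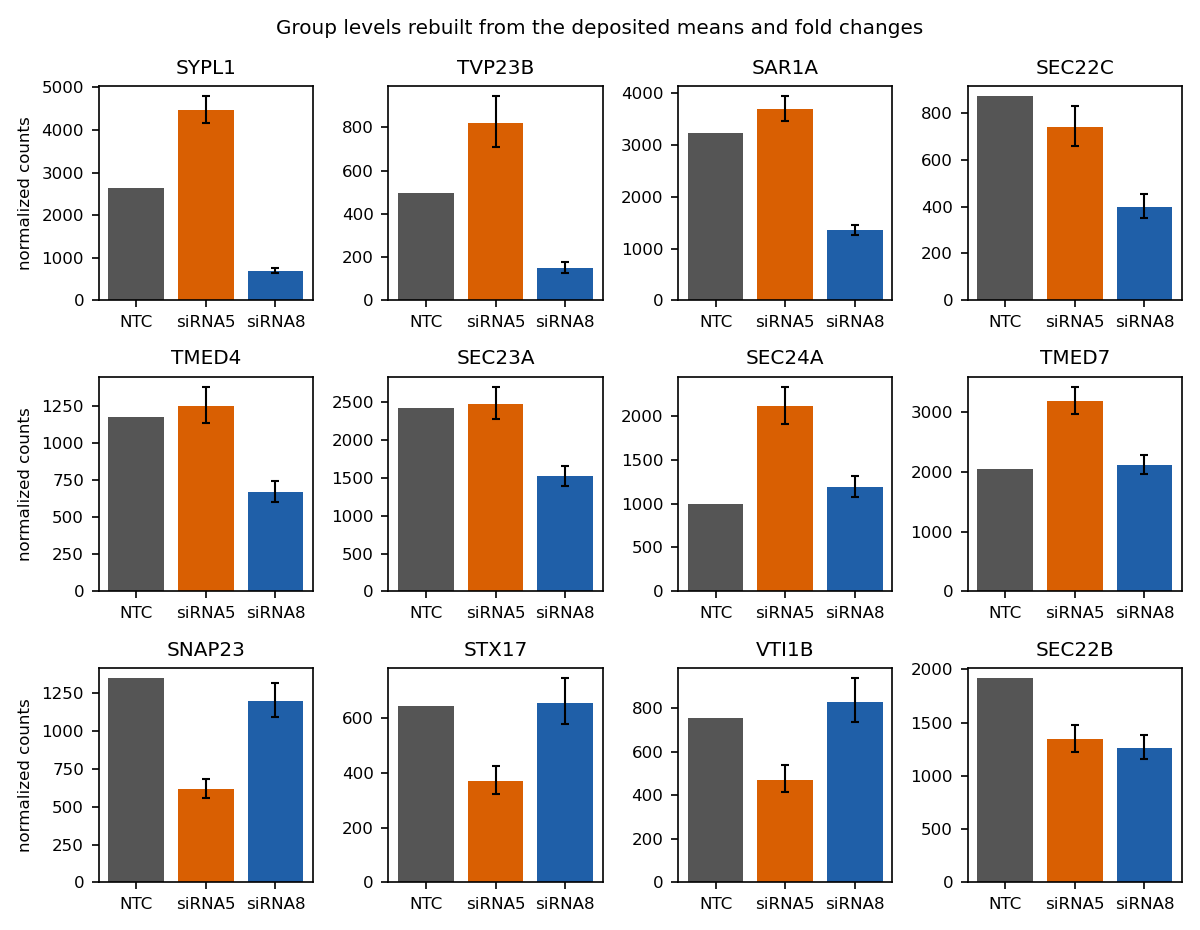
Levels of 12 members in the 3 groups, in normalized counts rebuilt from the deposited means and fold changes (vertical axes start at 0; bars are the non-targeting control, siRNA5 and siRNA8; lines are 95% intervals of the change against the control). SYPL1, TVP23B and SAR1A are above the control with siRNA5 and below it with siRNA8, SNAP23, STX17 and VTI1B are lowest with siRNA5, and SEC22B is lower with each siRNA.

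The members' 3' UTRs were read for short sequences that went with lower RNA. Among 9000 genes that are not members, all 16384 heptamers were ranked by the log2 changes of the genes that hold them, after adjustment for the length and GC share of the 3' UTR. For siRNA8 the heptamer at the top was ctagaaa, held by 1559 of those genes (17.3%), whose log2 changes were on average 0.15 below those of the others (-0.15), and actagaa, which overlaps it by 6 bases, came second. Of the 78 members with an annotated 3' UTR, 16 (20.5%) hold ctagaaa on the sense strand, the only strand searched. The 3 members with the deepest siRNA8 falls at a mean of at least 100, SYPL1, TVP23B and SAR1A, all hold it. The first site of each is shown with up to 10 bases on either side, in DNA letters, with the heptamer in capitals, next to SEC23A and SEC22B, which also fell, and SAR1B and SEC23B, the closest relatives of SAR1A and SEC23A.
SYPL1: tgtgcctttcCTAGAAAgttaagatgt
TVP23B: gcagttggggCTAGAAAgtatgtgttg
SAR1A: gcacagagaaCTAGAAAaggggcagaa
SEC23A: atagctggttCTAGAAAtttgaagtct
SEC22B: tgccattactCTAGAAAaatgttcctg
SAR1B: gcccgagcctCTAGAAAggaagccatg
SEC23B: ttcaaaatgtCTAGAAAggcttgataa

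These windows were taken from GENCODE 29 transcripts, and they lie in GRCh38 at chr7:106091629-106091655 (minus strand) for SYPL1, chr17:18805744-18805770 (plus) for TVP23B and chr10:70151851-70151877 (minus) for SAR1A. The others lie at chr14:39032995-39033021 (minus) for SEC23A, chr1:120153850-120153876 (minus) for SEC22B, chr5:134604572-134604598 (minus) for SAR1B and chr20:18560782-18560808 (plus) for SEC23B. Each window lies within 1 exon, in the 3' UTR, and these coordinates are not those of hg19, the build in the submitters' processing notes. Of the 16 members that hold the heptamer, 8 fell, 2 rose and 6 did not pass with siRNA8, with a median log2 change of -0.25. Of the 62 that do not hold it, 16 fell, 18 rose and the rest were not called, with a median of -0.0016. The other genes below all have a mean of at least 100. Of 13 member holders with such a mean, 7 fell and 2 rose with siRNA8 (median -0.32). Of 57 such members without the heptamer, 15 fell and 17 rose (median 0.0039). None of these medians is adjusted for the length or GC share of the 3' UTR. Among the other genes, 34.3% of the holders and 20.0% of the rest fell with siRNA8, with medians of -0.07 and 0.03. The heptamer was picked by the changes of those same genes, so their gap follows from the choice and is not separate evidence. With siRNA5, the same 16 members had a median of 0.11, and 4 fell and 5 rose. Of those 4, SEC22B and SEC14L6 fell with siRNA8 too. The siRNA5 and siRNA8 changes were -0.51 and -0.60 for SEC22B, and -1.23 and -0.87 for SEC14L6, per the authors' deposited tables. Holding the heptamer did not go with a fall in every member: SAR1B, with 2 sites, had a log2 change of -0.05 (SE 0.070) and SEC23B rose by 0.23 (SE 0.072) with siRNA8 per the authors' deposited table. SEC22C and TMED4, which had the fourth and sixth deepest siRNA8 falls at a mean of at least 100, do not hold it. For siRNA5 the heptamer at the top was aacgctg, held by 301 of the other genes (3.34%) and by 3 members, of which SEC14L2 fell. With adjustment for length only, the siRNA8 heptamer kept its place while cctgggc came first for siRNA5. The part of these sequences in the changes was not tested.

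**Figure D2:**
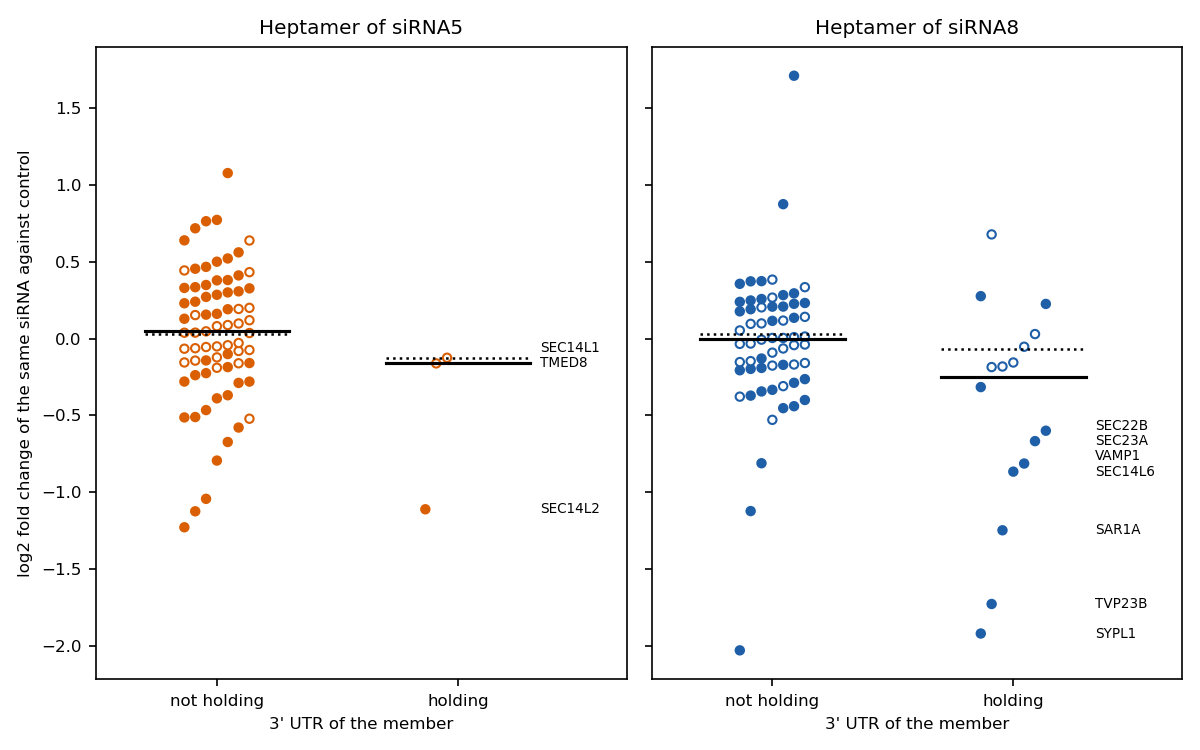
Log2 fold change against the control (vertical axis) of each member with an annotated 3' UTR, by whether that 3' UTR holds the heptamer of siRNA5 (left, siRNA5 changes) or of siRNA8 (right, siRNA8 changes); filled points passed an adjusted p under 0.05, solid lines are member medians and dotted lines the medians of the other genes. On the right, the 16 holders have a median of -0.25 and the 62 others one of -0.0016, and the 7 lowest holders are named.

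COPII genes rose more often than they fell with siRNA5 and split with siRNA8. Of 13 COPII members, 6 rose, 3 fell and 4 did not pass with siRNA5. With siRNA8, 4 rose, 3 fell and 6 did not pass. With siRNA5 these are 46.2% higher and 23.1% lower, beside 24.4% and 22.0% of all genes. With siRNA8 they are 30.8% higher and 23.1% lower, beside 21.0% and 20.5% of all genes. SEC24A, a cargo-binding subunit of the inner coat, went from 998.7 normalized counts in the control to 2107 with siRNA5 and 1186 with siRNA8. The authors' deposited tables put the SEC24A change at 1.08 (SE 0.072, adjusted p = 2.46e-48) and 0.25 (SE 0.075, adjusted p = 0.00339), and it was the single member with a rise of at least 2-fold with siRNA5. SEC24D, another cargo adaptor, rose with siRNA5 by 0.47 (SE 0.065) and had a change of 0.10 (SE 0.066) with siRNA8 per the authors' deposited tables. SEC24B rose by 0.24 (SE 0.077) and 0.19 (SE 0.077), and SEC24C had changes of -0.03 (SE 0.049) with each siRNA per the authors' deposited tables. The 4 SEC24 adaptors therefore ranged from no call to a doubling within the siRNA5 comparison.

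The SAR1 and SEC23 pairs moved apart with siRNA8. SAR1A, 1 of 2 GTPases that start COPII assembly, stood at 3237 normalized counts in the control, 3695 with siRNA5 and 1363 with siRNA8. SAR1A rose with siRNA5 by 0.19 (SE 0.049) and with siRNA8 fell by 1.25 (SE 0.054, adjusted p = 2.46e-116) per the authors' deposited tables. SAR1B, its close relative, stood at 945.1, 1141 and 910.9, with a rise of 0.27 (SE 0.068) with siRNA5 and no call with siRNA8 (adjusted p = 0.572) per the authors' deposited tables. SEC23A, the GTPase-activating subunit of the inner coat, fell by 0.67 (SE 0.063, adjusted p = 3.37e-24) with siRNA8 and had a change of 0.04 (SE 0.061) with siRNA5 per the authors' deposited tables. SEC23B, which serves the same role, rose by 0.38 (SE 0.071) and 0.23 (SE 0.072) per the authors' deposited tables. The differences between relatives were not tested. SEC31A, the outer coat subunit, fell by 0.29 (SE 0.057) and 0.21 (SE 0.057), and SEC23IP, which binds SEC23, fell by 0.28 (SE 0.057) with siRNA5 and with siRNA8 rose by 0.14 (SE 0.055) per the authors' deposited tables. SEC16A, the scaffold of ER exit sites, had changes of 0.05 (SE 0.052) and 0.01 (SE 0.052) per the authors' deposited tables. SEC16B fell by 1.04 (SE 0.44, adjusted p = 0.0418) with siRNA5 at a mean of only 28.2 per the authors' deposited table.

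No COPI gene that passed the test changed by as much as 1.5-fold. Of 9 COPI members, 3 rose, 3 fell and 3 did not pass with siRNA5. With siRNA8, 4 rose, 2 fell and 3 did not pass. With siRNA5 these are 33.3% higher and 33.3% lower, beside 24.4% and 22.0% of all genes. With siRNA8 they are 44.4% higher and 22.2% lower, beside 21.0% and 20.5% of all genes. The coat is built from an inner set of beta, gamma, delta and zeta subunits and an outer set of alpha, beta-prime and epsilon subunits. In the inner set, ARCN1 (delta) stood at 2840 normalized counts in the control, 4076 with siRNA5 and 3394 with siRNA8. ARCN1 rose by 0.52 (SE 0.051, adjusted p = 2.17e-23) and 0.26 (SE 0.051), COPB1 (beta) by 0.38 (SE 0.049) and 0.12 (SE 0.050) and COPG1 (gamma) by 0.33 (SE 0.051) and 0.24 (SE 0.051) per the authors' deposited tables. The COPB1 call with siRNA8 (adjusted p = 0.0491) was lost when changes were centred on the median of all genes. COPZ1 (zeta) fell by 0.10 (SE 0.043, adjusted p = 0.042) with siRNA5 and with siRNA8 rose by 0.23 (SE 0.042) per the authors' deposited tables. In the outer set, COPA (alpha) stood at 5382, 5760 and 4323 normalized counts, and it fell by 0.32 (SE 0.046, adjusted p = 1.05e-10) with siRNA8 while its siRNA5 change was 0.10 (SE 0.045, adjusted p = 0.064) per the authors' deposited tables. COPB2 (beta-prime) fell by 0.14 (SE 0.041) and 0.29 (SE 0.041), and COPE (epsilon) fell by 0.23 (SE 0.075) with siRNA5 per the authors' deposited tables. Of the 3 outer genes, 0 rose and 2 fell with each siRNA, and of the 6 inner genes, 3 rose and 1 fell with siRNA5 and 4 rose with siRNA8. The split into inner and outer sets was made after the values were seen. COPG2 and COPZ2, the other gamma and zeta genes, were not called.

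Most p24 receptors rose with siRNA5 and none fell. Of 9 TMED members, 6 rose and 3 did not pass with siRNA5 (median log2 change 0.28). With siRNA8, 3 rose, 2 fell and 4 did not pass (median 0.05). With siRNA5 these are 66.7% higher and 0% lower, beside 24.4% and 22.0% of all genes. With siRNA8 they are 33.3% higher and 22.2% lower, beside 21.0% and 20.5% of all genes. TMED7 stood at 2040 normalized counts in the control, 3178 with siRNA5 and 2117 with siRNA8, and TMED5 at 2488, 3671 and 2813. In the authors' deposited table for siRNA5, TMED7 rose by 0.64 (SE 0.052, adjusted p = 1.62e-32), TMED5 by 0.56 (SE 0.052) and TMED1 by 0.45 (SE 0.10). TMED10 and TMED2, of which TMED10 is needed for stable p24 complexes, rose by 0.33 (SE 0.061) and 0.28 (SE 0.043) with siRNA5 per the authors' deposited table. TMED4 stood at 1174, 1248 and 668.8 normalized counts, and its fall of 0.81 (SE 0.076, adjusted p = 9.09e-25) with siRNA8 was the deepest of the family per the authors' deposited table. TMED9 rose with siRNA5 by 0.16 (SE 0.047) and with siRNA8 fell by 0.19 (SE 0.047), and TMED3 rose by 0.28 (SE 0.065) with siRNA8 per the authors' deposited tables. TMED8, at a mean of 40.0, was not called.

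**Figure D3:**
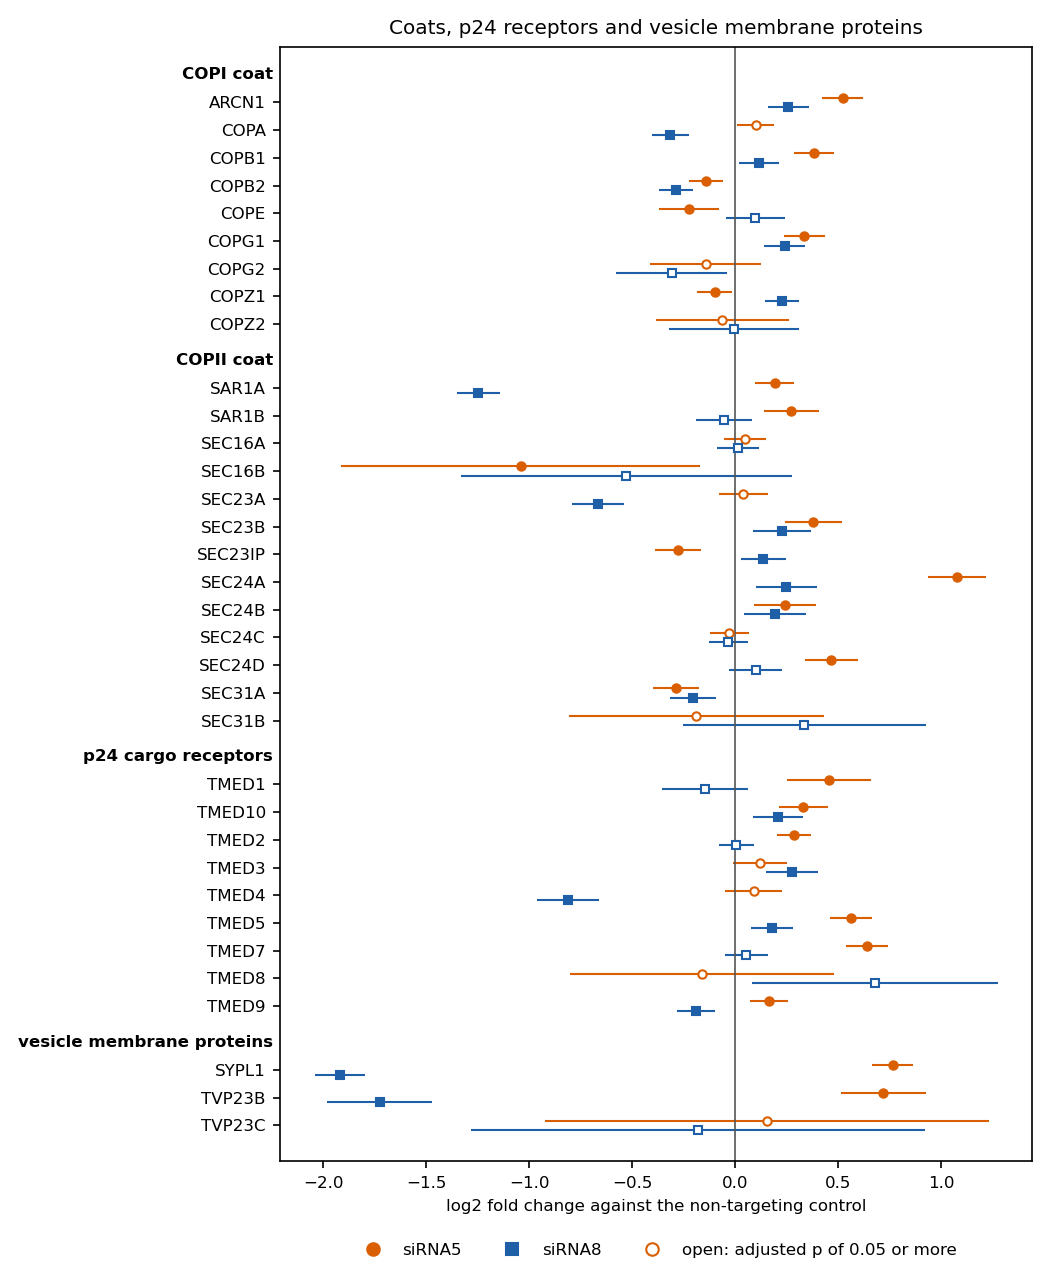
Log2 fold change against the control (horizontal axis) of the COPI, COPII, p24 and vesicle membrane members with siRNA5 (circles) and siRNA8 (squares); lines are 95% intervals and filled symbols passed an adjusted p under 0.05. SYPL1, TVP23B and SAR1A lie right of 0 with siRNA5 and far left with siRNA8, and SEC24A is the farthest right.

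Of the 10 members grouped here as ER-Golgi SNAREs, most fell with each siRNA and none rose. The group includes STX17, described below for its part at autophagosomes, which was called lower with siRNA5 only. Of the 10, 6 fell and 4 did not pass with siRNA5 (median log2 change -0.26), and 6 fell and 4 did not pass with siRNA8 (median -0.27). These are 60% lower with each siRNA, beside 22.0% of all genes with siRNA5 and 20.5% with siRNA8. The complex that fuses ER-derived vesicles with the Golgi is formed by STX5, GOSR2, BET1 and SEC22B. SEC22B, the vesicle SNARE, stood at 1918 normalized counts in the control, 1346 with siRNA5 and 1265 with siRNA8. SEC22B fell by 0.51 (SE 0.067, adjusted p = 3.64e-13) and 0.60 (SE 0.067, adjusted p = 7.9e-18), and BET1 by 0.39 (SE 0.086) and 0.44 (SE 0.085) per the authors' deposited tables. GOSR2 stood at 1264, 978.8 and 977.1 normalized counts and fell by 0.37 (SE 0.071) with each siRNA per the authors' deposited tables. STX5, the syntaxin of this complex, fell by 0.33 (SE 0.095, adjusted p = 0.00167) with siRNA8 and had a change of -0.16 (SE 0.094, adjusted p = 0.169) with siRNA5 per the authors' deposited tables. So 3 of the 4 subunits fell with siRNA5 and 4 of 4 with siRNA8, and the direct test found no difference between the siRNAs for any of the 4.

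The other early SNAREs varied more, and 3 of them are not members by symbol. BET1L, which pairs with STX5, GOSR1 and YKT6 within the Golgi, fell by 0.58 (SE 0.090) and 0.45 (SE 0.088) per the authors' deposited tables. YKT6 fell by 0.20 (SE 0.050) with siRNA8, and GOSR1 had changes of 0.19 (SE 0.097) and -0.17 (SE 0.099) per the authors' deposited tables. SEC22C, a relative of SEC22B, stood at 870.5, 737.9 and 399.7 normalized counts and fell by 0.24 (SE 0.085) with siRNA5 and 1.12 (SE 0.092, adjusted p = 2.9e-32) with siRNA8 per the authors' deposited tables. STX17, which fuses autophagosomes with lysosomes, was at 643.0, 370.8 and 656.2 normalized counts. STX17 fell by 0.79 (SE 0.10, adjusted p = 2.18e-13) with siRNA5 and had a change of 0.03 (SE 0.094) with siRNA8, while its partners SNAP29 and VAMP8 were not called with either siRNA per the authors' deposited tables. STX18, the syntaxin of vesicles returning to the ER, fell by 0.28 (SE 0.095) with siRNA5 per the authors' deposited table. Of its partners outside the members, BNIP1 rose by 0.45 (SE 0.14, adjusted p = 0.00386) with siRNA5 and had a change of 0.30 (SE 0.14) with siRNA8, and USE1 was not called with either siRNA (0.31, SE 0.19, and -0.39, SE 0.20) per the authors' deposited tables.

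SNAREs of the trans-Golgi, endosomes and plasma membrane went in both directions, with siRNA5 at shares near those of all genes. Of 23 such members, 5 rose, 6 fell and 12 did not pass with siRNA5. With siRNA8, 8 rose, 4 fell and 11 did not pass. These are 21.7% higher and 26.1% lower with siRNA5, beside 24.4% and 22.0% of all genes, and 34.8% and 17.4% with siRNA8, beside 21.0% and 20.5%. SNAP23, the partner of plasma membrane syntaxins outside neurons, stood at 1349 normalized counts in the control, 618.6 with siRNA5 and 1198 with siRNA8. SNAP23 fell by 1.12 (SE 0.076, adjusted p = 2.26e-47) with siRNA5 and by 0.17 (SE 0.070, adjusted p = 0.0357) with siRNA8 per the authors' deposited tables. Some of its plasma membrane partners were higher: STX4 rose by 0.50 (SE 0.082) and 0.23 (SE 0.083), VAMP3 rose by 0.35 (SE 0.044) and 0.21 (SE 0.044), and VAMP2 rose by 0.77 (SE 0.14) with siRNA5 per the authors' deposited tables. VAMP2 was not called with siRNA8 (0.12, SE 0.15), and VAMP8 was not called with either siRNA (-0.04, SE 0.091, with each) per the authors' deposited tables. STX3, the apical syntaxin of epithelia, rose by 0.33 (SE 0.086) and 0.36 (SE 0.085) per the authors' deposited tables.

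Endosomal SNAREs fell, rose or were not called with siRNA5. STX7 and VTI1B, which join with STX8 and VAMP8 at late endosomes, fell by 0.51 (SE 0.093) and 0.67 (SE 0.097, adjusted p = 3.84e-11) with siRNA5 per the authors' deposited table. STX8 was not called with siRNA5 (0.08, SE 0.18) or siRNA8 (0.38, SE 0.18) per the authors' deposited tables. VTI1B stood at 753.0, 472.2 and 830.6 normalized counts, so the siRNA8 level was not below the control. In the complex that returns endosomal cargo to the trans-Golgi, STX16 fell by 0.19 (SE 0.068), VTI1A by 0.47 (SE 0.097) and VAMP4 by 0.58 (SE 0.19), and STX6 rose by 0.41 (SE 0.087) with siRNA5 per the authors' deposited table. STX6 rose by 0.37 (SE 0.086) with siRNA8, where the other 3 were not called per the authors' deposited table. The direct test found a difference between the siRNAs for STX7, VTI1B and VAMP4, and none that passed for VTI1A (adjusted p = 0.0852, Benjamini-Hochberg over all genes) or STX16 (adjusted p = 0.844). STX16 had a change of -0.15 (SE 0.068) with siRNA8 per the authors' deposited table, which passed the test once changes were centred on the median of all genes. STX12 and STX10, both of endosomes and the trans-Golgi, rose by 0.37 (SE 0.099) and 0.28 (SE 0.087) with siRNA8 per the authors' deposited table. Neither was called with siRNA5, where their changes were 0.04 (SE 0.10) and 0.20 (SE 0.088) per the authors' deposited table. STX1A, a syntaxin best known from synapses, stood at 96.6, 130.4 and 177.2 normalized counts and rose by 0.87 (SE 0.19, adjusted p = 1.63e-05) with siRNA8 per the authors' deposited table. SNAP25 and STX11 passed the test with siRNA8 at means of 17.3 and 18.5 only, with changes of 1.71 (SE 0.58) and -2.03 (SE 0.55) per the authors' deposited table. VAMP1 fell by 0.81 (SE 0.26) with siRNA8 at a mean of 75.2 per the authors' deposited table.

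**Figure D4:**
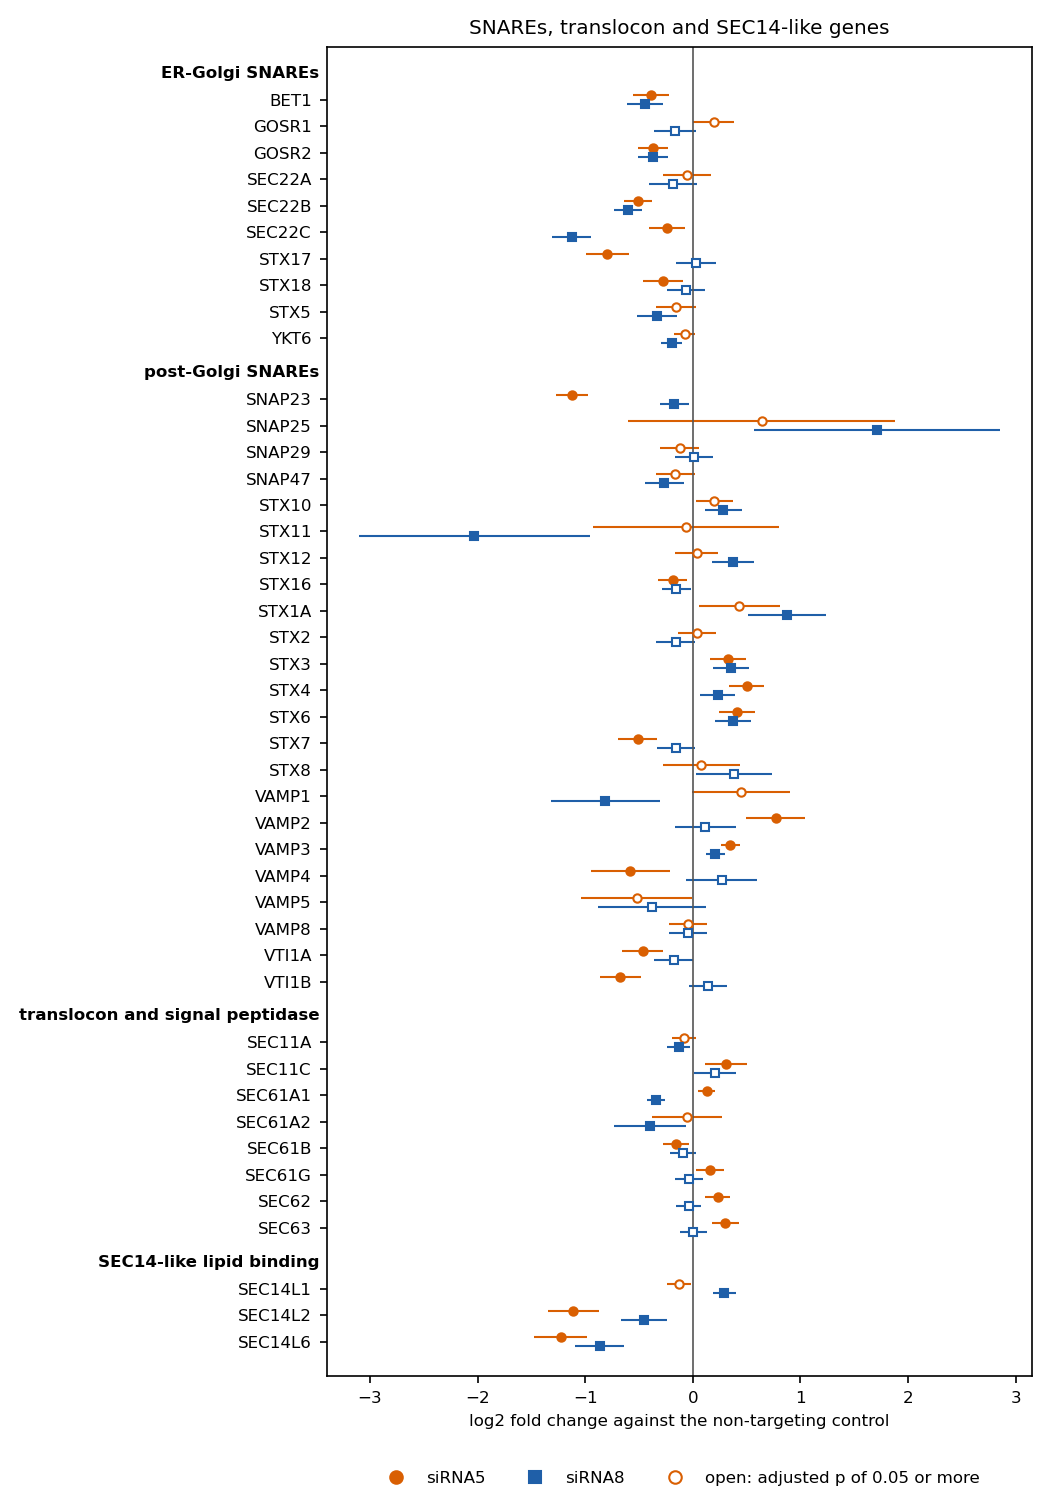
Log2 fold change against the control (horizontal axis) of the SNARE, translocon, signal peptidase and SEC14-like members with siRNA5 (circles) and siRNA8 (squares); lines are 95% intervals and filled symbols passed an adjusted p under 0.05. No ER-Golgi SNARE has a filled symbol right of 0, SNAP23, STX17 and VTI1B are far left with siRNA5, and intervals are widest for SNAP25 and STX11.

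Most translocon and signal peptidase members rose slightly with siRNA5, and 3 fell with siRNA8. Of 8 members, 5 rose, 1 fell and 2 did not pass with siRNA5. With siRNA8, 0 rose, 3 fell and 5 did not pass. With siRNA5 these are 62.5% higher and 12.5% lower, beside 24.4% and 22.0% of all genes. With siRNA8 they are 0% higher and 37.5% lower, beside 21.0% and 20.5% of all genes. SEC61A1, the pore subunit, stood at 8124, 8883 and 6399 normalized counts, and it rose with siRNA5 by 0.13 (SE 0.042) and with siRNA8 fell by 0.34 (SE 0.042, adjusted p = 7.95e-15) per the authors' deposited tables. SEC63 and SEC62, which assist the pore, rose by 0.30 (SE 0.064) and 0.23 (SE 0.059) with siRNA5 per the authors' deposited table. SEC14L2 and SEC14L6, lipid-binding proteins that share only the SEC prefix with the coats, were lower with each siRNA. SEC14L2 stood at 537.9 normalized counts in the control, 249.0 with siRNA5 and 393.0 with siRNA8, and SEC14L6 at 531.9, 227.0 and 291.8. SEC14L6 fell by 1.23 (SE 0.13) and 0.87 (SE 0.12), and SEC14L2 by 1.11 (SE 0.12) and 0.45 (SE 0.11) per the authors' deposited tables. SEC14L1 rose by 0.29 (SE 0.055) with siRNA8 per the authors' deposited table, and its pseudogene SEC14L1P1, at a mean of 14.9, was not called.

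Set directly against each other, the siRNAs differed for 35 members, 25 of them lower and 10 higher with siRNA8 (difference of the log2 changes over the root of their summed squared SE, Benjamini-Hochberg over all genes). These are 31.6% and 12.7% of the members, beside 17.2% and 14.8% of all genes. With the variance of the shared controls rebuilt and taken out of the SE, 29 of the 79 members were lower and 17 higher with siRNA8. Of all 11679 genes, 2903 were lower and 2712 higher by that test (24.9% and 23.2%). SYPL1 differed most, by -2.68 (SE 0.081, adjusted p = 2.15e-235), which is a 6.43-fold lower level with siRNA8. TVP23B differed by -2.45 (SE 0.17, adjusted p = 3.1e-46), SAR1A by -1.44 (SE 0.072), TMED4 by -0.90 (SE 0.10), SEC22C by -0.88 (SE 0.13) and SEC24A by -0.83 (SE 0.10). Higher with siRNA8 were SNAP23 by 0.95 (SE 0.10, adjusted p = 1.23e-18), VAMP4 by 0.85 (SE 0.25), STX17 by 0.82 (SE 0.14) and VTI1B by 0.81 (SE 0.13). The p24 family held 6 such members, all lower with siRNA8, and the translocon group held 3, also lower. For 7 members the calls against the control had opposite signs: SYPL1, TVP23B, SAR1A, TMED9 and SEC61A1 rose with siRNA5 and fell with siRNA8, and COPZ1 and SEC23IP did the reverse. The share of all genes with opposite calls is not given here, so whether 7 is many for a set of this size is not shown. For 44 members the difference did not pass the test, which does not show that they responded alike. Among these, the GOSR2 difference was -0.0025 (SE 0.10), the VAMP8 difference 0.0007 (SE 0.13) and the SEC24C difference -0.0059 (SE 0.069).

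**Figure D5:**
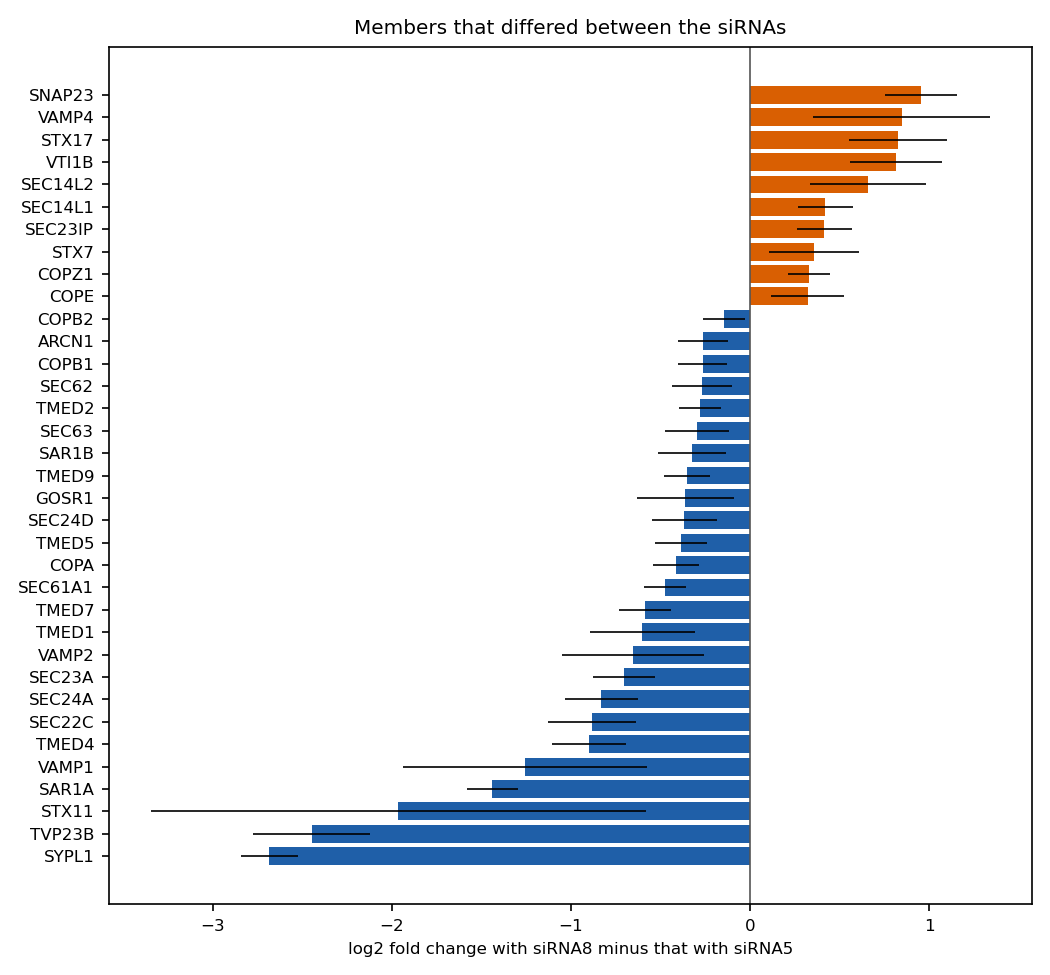
Log2 fold change with siRNA8 minus that with siRNA5 (horizontal axis) for the 35 members whose difference passed an adjusted p under 0.05; lines are 95% intervals from SEs that leave out the covariance of the shared controls. Bars left of 0 are lower with siRNA8 (25 members, SYPL1 at the bottom with -2.68), and bars right of 0 are higher (10 members, SNAP23 at the top with 0.95).

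Other genes of the same pathway, taken from 12 lists of tethers, cargo receptors, adaptors and regulators, changed somewhat more often than all genes. Of 151 measured list genes, 44 rose and 35 fell with siRNA5 (29.1% and 23.2%), and 33 rose and 38 fell with siRNA8 (21.9% and 25.2%). Over all genes 24.4% rose and 22.0% fell with siRNA5, and 21.0% and 20.5% with siRNA8. Cargo receptors of the early pathway were the list with the highest share of rises with siRNA5, with 9 of 15 higher and 1 lower, and 6 rose and 5 fell with siRNA8. These are 60% and 6.67% with siRNA5 and 40% and 33.3% with siRNA8. The list was picked out of the 12 by that share. MCFD2, the partner of the glycoprotein receptor LMAN1, rose by 0.62 (SE 0.061) and 0.83 (SE 0.060) per the authors' deposited tables. KDELR2, which retrieves ER proteins from the Golgi, rose with siRNA5 by 0.36 (SE 0.045) and with siRNA8 fell by 1.22 (SE 0.048) per the authors' deposited tables. ERGIC1, a protein of the ER-Golgi intermediate compartment, fell by 0.28 (SE 0.045) with siRNA5 and with siRNA8 rose by 0.28 (SE 0.044) per the authors' deposited tables.

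Regulators of the coats included some of the deeper changes. PREB, the exchange factor that loads SAR1 with GTP, fell by 0.66 (SE 0.075) with siRNA8 and had a change of -0.02 (SE 0.072) with siRNA5 per the authors' deposited tables. Among 14 ARF GTPases and their regulators, 5 rose and 6 fell with siRNA5, and 3 rose and 5 fell with siRNA8. With siRNA5 these are 35.7% and 42.9%, beside 24.4% and 22.0% of all genes. With siRNA8 they are 21.4% and 35.7%, beside 21.0% and 20.5% of all genes. ARF3 fell by 1.07 (SE 0.063) and 0.30 (SE 0.059), ARFRP1, a GTPase of the trans-Golgi, fell by 0.93 (SE 0.092) and 1.07 (SE 0.093), and ARFGAP2, which acts on COPI vesicles, fell by 0.46 (SE 0.085) and 0.64 (SE 0.085) per the authors' deposited tables. In the other direction, ARFGEF2 rose by 0.39 (SE 0.058) and 0.41 (SE 0.058) per the authors' deposited tables. ARL1 rose by 0.41 (SE 0.068) and 0.21 (SE 0.068), and ARF4 by 0.22 (SE 0.053) and 0.28 (SE 0.053) per the authors' deposited tables. MIA3, which loads large cargo such as collagen into COPII carriers, rose by 0.56 (SE 0.067) with siRNA8 per the authors' deposited table.

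Tethers and adaptors changed in both directions. Over all genes, 24.4% rose and 22.0% fell with siRNA5, and 21.0% rose and 20.5% fell with siRNA8. Of 14 TRAPP subunits, 1 rose and 4 fell with siRNA5 and 2 rose and 3 fell with siRNA8, with TRAPPC5 at -1.17 (SE 0.15) and -0.69 (SE 0.14) per the authors' deposited tables. Of 14 golgins and stacking proteins, 6 rose and 3 fell with siRNA5 and 3 rose and 6 fell with siRNA8, and GOLGA4, a trans-Golgi tether, rose by 0.44 (SE 0.074) and fell by 0.59 (SE 0.076) for siRNA5 and siRNA8 per the authors' deposited tables. Of 28 clathrin and adaptor genes, 5 rose and 7 fell with siRNA5 and 10 rose and 6 fell with siRNA8, among them AP2B1, the beta subunit of the endocytic adaptor, which fell by 0.55 (SE 0.048) and 0.27 (SE 0.047) per the authors' deposited tables. VPS54, a subunit of the GARP tether, fell by 1.27 (SE 0.11) with siRNA8 and had a change of 0.21 (SE 0.10) with siRNA5 per the authors' deposited tables. The COG and NRZ tethers held 0 rises and 2 falls among 11 genes with siRNA5 and 1 of each with siRNA8. SNARE disassembly and the remaining early SNAREs gave 2 rises and 2 falls among 7 genes with siRNA5 and 1 fall with siRNA8, syntaxin-binding proteins 6 and 2 among 12 and then 2 and 2, and ER exit site factors 1 and 2 among 7 and then 3 and 2. The exocyst gave 3 rises and 1 fall among 9 genes with siRNA5 and 2 and 1 with siRNA8, retromer and GARP 1 and 3 among 7 with each siRNA, and the physins, SCAMP and YIPF proteins 5 and 2 among 14 and then 1 and 3. SYNGR2, a four-span relative of SYPL1, rose with siRNA5 by 0.20 (SE 0.068) and with siRNA8 fell by 0.40 (SE 0.070) per the authors' deposited tables.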

How the data were processed

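The data were 2 tables of the authors' results on 786-O cells, 1 per ALYREF siRNA, with 3 groups of 2 libraries. The submitters' processing notes list DESeq2, HTSeq, Picard and STAR with no version, and the build hg19. Per the file headers, the authors' mean is a signal of normalized counts, and it is identical in both tables. The authors' deposited fold changes and SEs are log2 values, the deposited Wald score is their ratio (checked to within rounding), and the deposited p-values are two-sided and Benjamini-Hochberg adjusted over all 11681 rows. The 2 rows that name no gene held 7.85% of the summed means and stayed out of all counts here. Whether fold changes were shrunk, which strand was counted and which genes were filtered out are not given in the sources used here.

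Group levels were rebuilt from the mean and both fold changes with equal group sizes. Dispersions rebuilt from the 2 tables differed by a median of 2.61%. The direct comparison of the siRNAs leaves out the covariance of the shared controls, so its SE is an upper bound. It was tested on simulated data with 11679 genes, where it called 12.0% of 50 genes changed 1.2-fold, 72.0% of 50 genes changed 1.5-fold and 96.0% of 50 changed 2-fold. The 3' UTR was the longest of each gene's protein-coding transcripts in the GENCODE 29 basic set. It was found for 10913 genes, and genes with a mean of at least 100, a 3' UTR of at least 50 bases and no membership entered the ranking of heptamers held by at least 50 genes. Near-identical copies were sought with BLAST 2.17.0 (at least 95% identity over 50% of the transcript). Python 3.11.15 with pandas 2.3.3, scipy 1.17.1 and statsmodels 0.14.6 were used.

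A gene of these families that the rule leaves out is not reported here. Members, lists and named genes were chosen with earlier results of these data known. Named were SYPL1, the 8 strongest changes each way with an siRNA, the 6 largest differences each way among called members with a mean of at least 100, members called with each siRNA, the most abundant of each role, and at most 3 rises and 3 falls in a pathway list. Others are named to complete a family or complex. The SNARE complexes and the heptamer ranking were added after the values were seen. Alternatives were a threshold of 0.01, Holm adjustment, a mean of at least 100, centring on the median of all genes, at least 1.5-fold changes, a smaller set of members and a rebuilt control variance.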

Additional observations from a re-analysis of the deposited data

Results flagged for a closer look

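The siRNAs had different effects on 35 members by the test of the difference itself (siRNA8 minus siRNA5, log2 scale, adjusted over all genes). Among all genes, 17.2% were lower and 14.8% higher with siRNA8 by the same test. The differences of at least 0.5 in the direction of lower levels with siRNA8 were -2.68 for SYPL1, -2.45 for TVP23B, -1.96 for STX11, -1.44 for SAR1A, -1.26 for VAMP1, -0.90 for TMED4, -0.88 for SEC22C, -0.83 for SEC24A, -0.71 for SEC23A, -0.66 for VAMP2, -0.60 for TMED1, -0.59 for TMED7. STX11 and VAMP1 have means under 100, and their SEs of the difference were 0.70 and 0.35. Smaller differences in the same direction were -0.47 for SEC61A1, -0.41 for COPA, -0.38 for TMED5, -0.37 for SEC24D, -0.36 for GOSR1, -0.35 for TMED9, -0.32 for SAR1B, -0.30 for SEC63, -0.28 for TMED2, -0.27 for SEC62, -0.27 for COPB1, -0.26 for ARCN1, -0.15 for COPB2. The differences in the direction of higher levels with siRNA8 were 0.95 for SNAP23, 0.85 for VAMP4, 0.82 for STX17, 0.81 for VTI1B, 0.66 for SEC14L2, 0.42 for SEC14L1, 0.41 for SEC23IP, 0.36 for STX7, 0.33 for COPZ1, 0.32 for COPE. SYPL1, TVP23B, SAR1A, SEC23A, COPA, SAR1B, VAMP1, STX7 and STX17 hold the siRNA8 heptamer, and its part in the differences was not tested.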

How the results depend on the processing

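No member's call changed direction under centring. With Holm adjustment 28 members were called with siRNA5, 19 with siRNA8 and 19 in the direct comparison, in place of 48, 44 and 35. With a change of at least 1.5-fold required as well, 11 were called with siRNA5 (5 higher, 6 lower), 12 with siRNA8 (2 higher, 10 lower) and 17 in the direct comparison (5 higher, 12 lower). The shares of all genes under the Holm and 1.5-fold settings are not given here. Whether these counts are particular to the members is therefore not shown. The other planned settings left each count within 1.5 times, at 38 to 49 with siRNA5, 35 to 44 with siRNA8 and 29 to 46 in the direct comparison, where 46 (17 higher and 29 lower with siRNA8, in place of 10 and 25) came with the rebuilt control variance. Without the 16 members that hold the siRNA8 heptamer, a setting chosen after seeing the data, 18 rose and 16 fell with siRNA8, and without the 3 that hold the siRNA5 heptamer 27 rose and 20 fell with siRNA5. Centring kept 154 of 158 calls of single members, COPB1 with siRNA8 and SEC61G with siRNA5 lost theirs, and STX16 with siRNA8 and SEC14L1 with siRNA5 gained one. No paired analysis was possible because the tables give no value per library, and for the same reason no library could be left out in turn. Members with means under 100 (9 of 79) have SEs from 0.23 to 0.63.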
